A study of Mus musculus with 15 samples.

Results

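Small leucine-rich proteoglycans are secreted proteins whose leucine-rich repeats bind collagen fibrils and whose attached sugar chains space the fibrils apart. They set fibril diameter, and several also hold growth factors of the TGF-β and BMP families in the matrix. In lung they are mainly made by fibroblasts and other mesenchymal cells. The 8 genes described here were chosen by name: Dcn (decorin), Bgn (biglycan) and Aspn (asporin) of class I, Lum (lumican), Fmod (fibromodulin) and Prelp of class II, Ogn (osteoglycin) of class III, and Podn (podocan), which lies outside those classes. Each had a single probe with a single spot, which makes 8 of the 55681 non-control probes and 8 of the 22405 named genes of the array.

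RNA came from primary murine cells on 1-colour Agilent arrays, with 1 sample to an array and 15 arrays in all. ATII cells, alveolar epithelial cells that secrete surfactant, had been cultured for 3 days at an air-liquid interface and received 1 mM β-aminopropionitrile (BAPN, n = 4) or phosphate-buffered saline as vehicle (n = 4) for 24 h. Lung fibroblasts of passage 3 or later, starved for 24 h, received BAPN at 1 mM (n = 3) or the same vehicle (n = 4), also for 24 h. BAPN blocks the lysyl oxidases, the enzymes that start the covalent cross-linking of collagen and elastin. No group carried a genetic change per the labels, and strain, age and sex of the animals are not given there. One array of BAPN ATII cells carries the word replacement and no number, and is called replicate 5. Separate animals or cultures for the replicates are not stated, so the spread behind each p-value may be technical. Cell type goes with passage, starvation and culture at an air-liquid interface, and these cannot be told apart.

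Levels are log2 intensities on a scale whose 0 is the 75th percentile of an array, and a level is compared between arrays but never between probes. The share of spots well above background was 65.2% to 71.2% over the 15 arrays. Of the 8 genes, 6 were well above background on all 15 arrays. Prelp was so on all 7 fibroblast arrays and on 0 of 8 ATII arrays, and Aspn on 2 of 15 arrays, both of vehicle fibroblasts.

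The probes that carry these values are given with their position on mouse build mm9, per the file headers, and with the first 30 of their 60 bases in lower case. They are shown because each gene rests on this single probe.
Dcn (chr10:96980233-96980292, plus strand): aacaccttcagatgtgtctatgtgcgttct
Bgn (chrX:70738554-70738613, plus strand): caatcagattcggatgattgagaatgggag
Lum (chr10:97035210-97035269, plus strand): taagcatttgcacggttacttagtgaaact
Fmod (chr1:135943998-135944057, plus strand): ggcaagcgtggttttcaaaacatgagaaag
Ogn (chr13:49719549-49719608, plus strand): cattaaagcatctgtgaactgtaaggccac
Prelp (chr1:135806855-135806914, minus strand): gaaataaagtcatatggaaaacacccagca
Aspn (chr13:49662479-49662538, plus strand): ctcaactcataataaagcttcaagtattca
Podn (chr4:107687484-107687543, minus strand): ttggtcttcagttctgcagggaagttctgg
Several of the genes lie side by side. In the gene order of RefSeq assembly GRCm38.p6, 0 protein-coding genes lie between Prelp and Fmod on chromosome 1 and 0 between Dcn and Lum on chromosome 10. Aspn and Ogn on chromosome 13 are separated by Omd alone. On mm9 the probes of Prelp and Fmod lie 137083 bases apart, those of Dcn and Lum 54917, and those of Aspn and Ogn 57010.

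The labelled cell types were checked against marker genes. All 7 epithelial markers were well above background on each ATII array, with Cdh1 (E-cadherin) at 4.30 ± 0.40 under BAPN and 4.35 ± 0.37 under vehicle, while on fibroblast arrays Cdh1 was at background. Of 10 ATII markers, 8 or 9 were well above background on each ATII array and 5 or 6 on each fibroblast array, and Slc34a2 was at background on all ATII arrays. The ATII cultures also carried fibroblast transcripts: all 12 fibroblast markers were well above background on each ATII array, and the log2 of their summed level was 10.5 to 11 (BAPN) and 10.3 to 10.8 (vehicle), against 10.8 to 11.1 (BAPN) and 10.6 to 11.1 (vehicle) in fibroblasts. The mean level of the 12 was lower, at 4.72 to 5.11 (BAPN) and 4.67 to 5.01 (vehicle) in ATII cells. In fibroblasts it was 5.67 to 5.99 and 5.51 to 5.85. Of the 12, 6 were lower and 0 higher in ATII cells under each treatment (limma, adjusted p under 0.05). Over all features 15.7% were lower under BAPN and 16.6% under vehicle. Pdgfra was at 0.77 ± 0.40 in vehicle ATII cells and 2.43 ± 0.34 in vehicle fibroblasts, while Col1a1 was at 7.84 ± 0.26 and 7.77 ± 0.18 (SD, n = 4 each). All 4 mesothelial markers were well above background on each ATII array (log2 summed level 6.65 to 7.48 with BAPN and 6.70 to 7.32 with vehicle), against 3 or 4 on fibroblast arrays (−1.02 to 4.32 and −1.07 to 4.08). All 9 macrophage markers were well above background on each fibroblast array (log2 summed level 3.99 to 5.20 with BAPN and 3.85 to 5.08 with vehicle). On ATII arrays 7 or 8 were (1.34 to 1.97 and 1.23 to 1.97). Of the 9, 8 were lower in ATII cells under BAPN and 9 under vehicle, and 0 higher (limma, adjusted p under 0.05). All 7 smooth muscle and pericyte markers were well above background on all arrays, and 1 to 3 of 4 endothelial markers. In bulk RNA, fewer cells of a type and less RNA per cell cannot be told apart, and the part of these other cells in the values below was not tested.

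The fibroblast arrays numbered 2 stood apart under both treatments. Wt1, a mesothelial transcription factor gene, was at 3.22, −3.84 and 1.82 in BAPN fibroblasts numbered 1, 2 and 4 and at 2.65, −4.25, 1.28 and 1.64 in vehicle fibroblasts numbered 1 to 4. Msln (mesothelin) was at 2.85, −1.50 and 1.32 in the same BAPN arrays and at 2.75, −1.43, 1.26 and 2.03 in the vehicle arrays. Macrophage markers were highest there: the log2 of their summed level was 3.99, 5.20 and 4.02 in BAPN fibroblasts and 3.96, 5.08, 3.85 and 4.41 in vehicle fibroblasts, in the same order. The labels do not say what sets the arrays numbered 2 apart, and the part of these other cells was not tested. Several results on fibroblasts are therefore also given without the 2 arrays numbered 2, an alternative chosen after these values were seen.

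**Figure D1:**
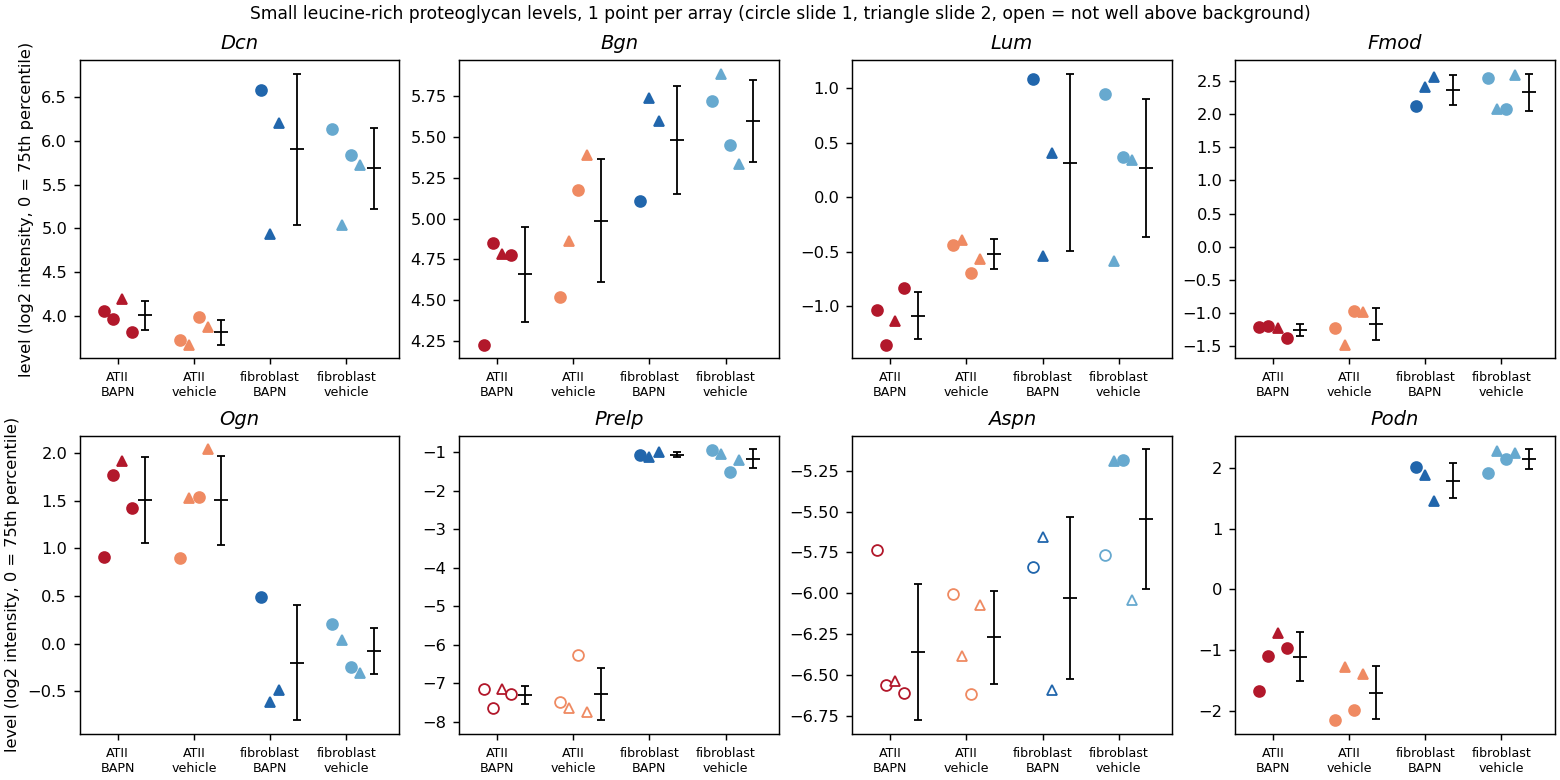
Level of each of the 8 genes on the 15 arrays (vertical axis, log2 intensity with 0 at the 75th percentile of an array; the scale differs between panels). Circles are arrays of slide 1, triangles of slide 2, open symbols were not well above background, and black bars give the group mean ± SD. Prelp, Fmod, Podn and Dcn lie lower in ATII cells without overlap, Ogn is the gene whose ATII arrays all lie above its fibroblast arrays, and no BAPN group is separated from its vehicle group except Lum in ATII cells.

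ATII cells were compared with fibroblasts within each treatment. Of the 7 genes tested, 1 was higher and 6 lower in ATII cells under BAPN, and 1 higher and 5 lower under vehicle (limma on all 15 arrays with Benjamini-Hochberg adjustment, adjusted p under 0.05). Prelp, among the lower genes in both, was at background on all ATII arrays and was tested through its fibroblast arrays alone. Its direction was thus fixed in advance, and it adds no support to these counts or to the medians below. Over all features, 29.0% were past the threshold under BAPN (13.2% higher, 15.7% lower) and 31.0% under vehicle (14.4% higher, 16.6% lower). The median log2 change of the 7 genes was −1.91 under BAPN, against 0.01 over all features, and −1.88 under vehicle, against −0.13. The arrays of the 2 cell types did not overlap in 34.0% of all features under BAPN and in 34.6% under vehicle. Both comparisons use the same 2 cell types but no array in common. Quantile scaling moved the vehicle median of all features to −0.02, while the vehicle changes were then −3.51 for Fmod, −3.87 for Podn and 1.57 for Ogn.

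The largest differences were in 3 genes that were lower in ATII cells. Prelp, whose product ties basement membranes to collagen, was at −7.15, −7.64, −7.16 and −7.27 in BAPN ATII cells and at −7.48, −7.64, −6.28 and −7.75 in vehicle ATII cells, none of them well above background. In fibroblasts it was at −1.06, −1.11 and −0.998 with BAPN and at −0.94, −1.03, −1.51 and −1.19 with vehicle. The cell types did not overlap. Prelp was at least 19.5-fold lower in ATII cells under BAPN and at least 22.2-fold lower under vehicle. For these bounds an ATII array counted at its dimmest detected probe, or at the Prelp signal where that was higher. The bounds themselves were not tested and hold for the main processing only. The limma fit used the ATII values at background and gave log2 changes of −6.25 under BAPN (adjusted p = 6.24e-09) and −6.12 under vehicle (adjusted p = 2.63e-09). The direction for Prelp was fixed in advance, so these p-values are no evidence for it. Over the alternatives the fitted change lay between −6.38 and −2.25 under BAPN and between −6.45 and −2.47 under vehicle. The smallest of these changes fall short of the bounds. On slide 1 the vehicle means were −6.88 in ATII cells and −1.22 in fibroblasts, and on slide 2 −7.69 and −1.11.

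Fmod, which encodes a keratan sulfate proteoglycan that binds collagen and influences its cross-linking, was at −1.21, −1.19, −1.22 and −1.38 in BAPN ATII cells and at −1.22, −1.48, −0.96 and −0.98 in vehicle ATII cells. Fibroblast arrays were at 2.12, 2.41 and 2.56 with BAPN and at 2.55, 2.08, 2.08 and 2.59 with vehicle, all above every ATII array. It was 12.2-fold lower in ATII cells under BAPN (log2 change −3.61 ± 0.17, SE; adjusted p = 8.49e-09) and 11.2-fold lower under vehicle (−3.48 ± 0.16; adjusted p = 3.98e-09). Within slide 1 the vehicle difference was −3.41 and within slide 2 −3.56. Of the 7 genes Fmod had the smallest SE.

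Podn, whose product binds type I collagen, was at −1.67, −1.10, −0.72 and −0.97 in BAPN ATII cells and at −2.16, −1.28, −1.98 and −1.39 in vehicle ATII cells. In fibroblasts it was at 2.02, 1.88 and 1.46 with BAPN and at 1.92, 2.28, 2.14 and 2.24 with vehicle, again without overlap of the cell types. The difference was −2.90 ± 0.25 under BAPN (7.49-fold lower in ATII cells, adjusted p = 1.78e-06) and −3.85 ± 0.23 under vehicle (14.4-fold lower, adjusted p = 5.18e-08). Under vehicle it was −4.10 within slide 1 and −3.60 within slide 2.

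Dcn, which encodes a chondroitin or dermatan sulfate proteoglycan that binds collagen and TGF-β, was also lower in ATII cells. It was at 4.05, 3.96, 4.19 and 3.81 in BAPN ATII cells and at 3.72, 3.66, 3.98 and 3.87 in vehicle ATII cells, a narrow range. Fibroblasts numbered 1, 2 and 4 had 6.59, 4.93 and 6.20 with BAPN, and those numbered 1 to 4 had 6.14, 5.04, 5.84 and 5.72 with vehicle. The arrays numbered 2 were the lowest of each fibroblast group, yet still above every ATII array. Dcn was 3.75-fold lower in ATII cells under BAPN (−1.91 ± 0.33; adjusted p = 6.51e-04) and 3.67-fold lower under vehicle (−1.88 ± 0.30; adjusted p = 3.45e-04). Without the fibroblast arrays numbered 2 these differences were −2.39 and −2.09. Within slide 1 the vehicle difference was −2.14 (adjusted p = 8.84e-04) and within slide 2, where 2 arrays faced 2, −1.61 (adjusted p = 0.0822).

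Lum, the keratan sulfate proteoglycan gene next to Dcn, showed the same 2 low fibroblast arrays. It was at −1.03, −1.36, −1.14 and −0.83 in BAPN ATII cells and at −0.44, −0.39, −0.70 and −0.57 in vehicle ATII cells. BAPN fibroblasts had 1.09, −0.54 and 0.40 and vehicle fibroblasts 0.95, −0.59, 0.37 and 0.34, in which the second value of each group is the array numbered 2. Under BAPN the cell types did not overlap, and Lum was 2.65-fold lower in ATII cells (−1.41 ± 0.36; adjusted p = 0.00929). Under vehicle 1 fibroblast array lay inside the ATII range, and the difference of −0.79 ± 0.33 missed the threshold (adjusted p = 0.0905). Without the arrays numbered 2 it was −1.08 and passed (adjusted p = 0.00215). It was −1.23 within slide 1 (adjusted p = 0.0218) and −0.36 within slide 2 (adjusted p = 0.592), where the array numbered 2 lies.

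Bgn, the class I relative of Dcn, whose product acts on Toll-like receptors when released from the matrix, had the smallest difference between the cell types. It was at 4.23, 4.85, 4.78 and 4.78 in BAPN ATII cells and at 4.52, 4.86, 5.18 and 5.39 in vehicle ATII cells. The fibroblast values were 5.11, 5.73 and 5.59 with BAPN and 5.71, 5.88, 5.45 and 5.33 with vehicle. The vehicle groups overlapped and the BAPN groups did not. Bgn was 1.76-fold lower in ATII cells under BAPN (−0.82 ± 0.23; adjusted p = 0.0173) and 1.52-fold lower under vehicle (−0.61 ± 0.22; adjusted p = 0.0473). The vehicle call was lost in 16 of 22 alternatives, among them quantile scaling (adjusted p = 0.0623) and the fits without vehicle fibroblast array 1, 2 or 3 or vehicle ATII array 1, 2 or 3. The BAPN call was lost in 6 of 21, among them the fits without BAPN fibroblast array 2 or 4 or BAPN ATII array 1. Without the fibroblast arrays numbered 2 both calls were lost (adjusted p = 0.08 under BAPN and 0.132 under vehicle).

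Ogn, also called mimecan, went the other way. It was at 0.91, 1.77, 1.92 and 1.43 in BAPN ATII cells and at 0.90, 1.53, 1.54 and 2.04 in vehicle ATII cells. Fibroblast levels were 0.49, −0.61 and −0.49 with BAPN and 0.20, 0.03, −0.24 and −0.30 with vehicle, so that every fibroblast array lay below every ATII array. It was 3.28-fold higher in ATII cells under BAPN (1.71 ± 0.32; adjusted p = 0.00118) and 3.00-fold higher under vehicle (1.58 ± 0.30; adjusted p = 0.00103). The BAPN difference was 0.88 within slide 1 (adjusted p = 0.152), with a single fibroblast BAPN array, and 2.47 within slide 2 (adjusted p = 0.0176), with a single ATII BAPN array. The vehicle difference was 1.24 (adjusted p = 0.0519) and 1.92 (adjusted p = 0.0113) within slides 1 and 2. Of the 4 mesothelial markers, Msln was the 1 that passed between the cell types, at 6.70 ± 0.38 in vehicle ATII cells and 1.15 ± 1.83 in vehicle fibroblasts (SD, n = 4 each). In the same groups Wt1 was at 4.11 ± 0.55 and 0.33 ± 3.11, Upk3b at −1.12 ± 0.44 and −0.50 ± 2.79, and Lrrn4 at −0.89 ± 0.37 and −2.48 ± 3.34. Upk3b was higher in 3 of 4 vehicle fibroblast arrays than the vehicle ATII mean, and Lrrn4 in 2 of 4. The part of mesothelial cells in the Ogn difference was not tested.

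Aspn, which encodes an inhibitor of TGF-β signalling and shares its gene cluster with Ogn, had levels of −5.74, −6.56, −6.53 and −6.61 in BAPN ATII cells, −6.00, −6.38, −6.62 and −6.07 in vehicle ATII cells, −5.84, −5.66 and −6.59 in BAPN fibroblasts and −5.77, −5.19, −5.19 and −6.04 in vehicle fibroblasts. Only the arrays at −5.19 were well above background, so Aspn was not tested and its values give no order of the groups.

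**Figure D2:**
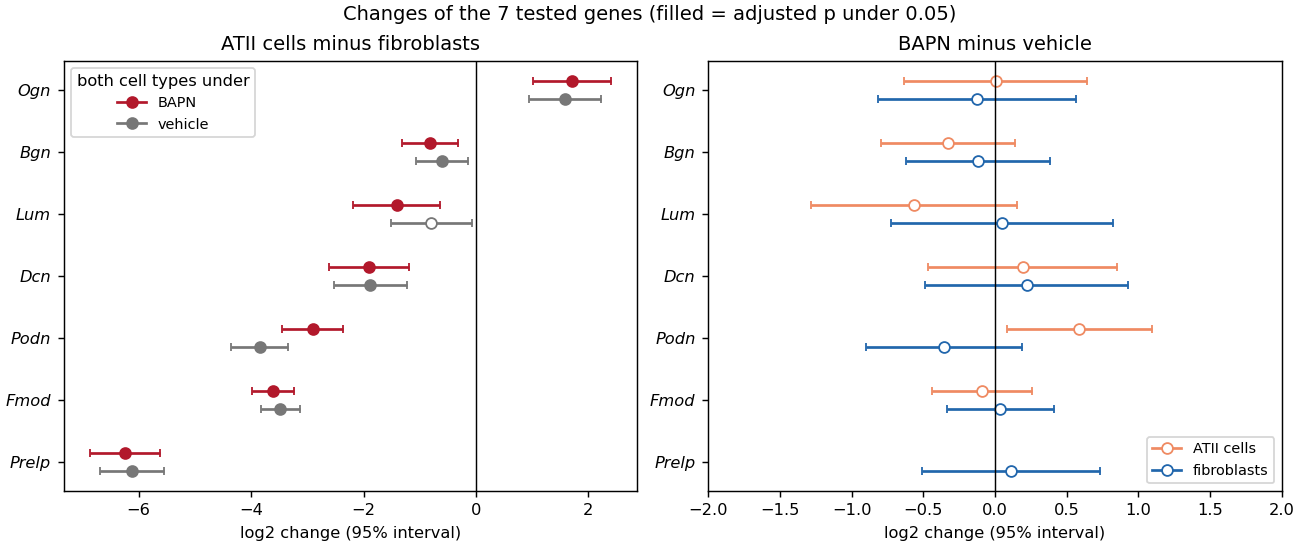
Log2 changes of the 7 tested genes with 95% intervals (horizontal axis, log2). On the left, ATII cells minus fibroblasts under BAPN (red) and vehicle (grey); on the right, BAPN minus vehicle in ATII cells (orange) and fibroblasts (blue). Filled points passed the adjusted threshold. The Prelp difference between cell types is a measured mean against arrays at background. The bounds of 19.5-fold and 22.2-fold hold for it under the main processing only. On the right no point is filled.

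Fmod and Prelp, which lie next to each other on opposite strands and were both far lower in ATII cells, are shown with their promoters, beside that of Ogn, which was higher. RefSeq's table for GRCm38.p6 held a promoter of 300 bases, most of it upstream of the start, for 6 of the 8 genes. Capitals mark matches, on either strand, to the TATA box TATAAA, the GC box GGGCGG, the AP-1 site TGANTCA and the Smad-binding core CAGAC.
Fmod (chr1:134037004-134037303, plus strand): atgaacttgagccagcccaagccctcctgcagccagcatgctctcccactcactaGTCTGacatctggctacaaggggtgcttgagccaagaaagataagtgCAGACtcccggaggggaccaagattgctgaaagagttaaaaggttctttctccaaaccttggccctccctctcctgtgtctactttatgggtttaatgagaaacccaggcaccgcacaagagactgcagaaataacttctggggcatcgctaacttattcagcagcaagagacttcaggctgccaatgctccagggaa
Prelp (chr1:133921352-133921651, minus strand): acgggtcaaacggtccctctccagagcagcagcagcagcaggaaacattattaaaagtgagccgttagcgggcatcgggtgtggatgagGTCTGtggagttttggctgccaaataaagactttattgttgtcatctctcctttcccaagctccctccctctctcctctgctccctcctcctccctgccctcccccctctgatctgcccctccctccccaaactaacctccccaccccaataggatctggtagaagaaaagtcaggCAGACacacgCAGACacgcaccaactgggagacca
Ogn (chr13:49607765-49608064, plus strand): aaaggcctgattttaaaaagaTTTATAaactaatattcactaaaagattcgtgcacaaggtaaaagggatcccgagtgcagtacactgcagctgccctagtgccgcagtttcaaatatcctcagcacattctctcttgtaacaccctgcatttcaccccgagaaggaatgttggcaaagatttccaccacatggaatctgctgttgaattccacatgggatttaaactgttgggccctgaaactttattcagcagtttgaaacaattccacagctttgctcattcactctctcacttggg
Fmod held 2 and Prelp 3 matches to CAGAC, a motif that 49.6% of all 32851 promoters of this length hold. Ogn held TATAAA (13.6% of promoters) on both strands. The marked match begins at base −229 from its start and reads on the opposite strand. A match on the printed strand overlaps it and is marked only in part. None of the 3 held TGANTCA (7.81%) or GGGCGG (35.7%) in this window. Their GC content was 51.0%, 55.3% and 42.3% for Fmod, Prelp and Ogn, against a median of 52.7% over all promoters.

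BAPN was then compared with vehicle within each cell type. In fibroblasts 0 of 7 tested genes passed (limma, Benjamini-Hochberg), and 0 of 7 had an unadjusted p under 0.05, while 13% of all features passed there (746 of 32255 higher and 3447 lower). That share moved with single arrays. The 4193 features past the threshold became 893 without BAPN fibroblast array 2, 1525 without vehicle fibroblast array 2, 276 within slide 1 and 0 without both arrays numbered 2. Among features kept by the stricter limit on dim probes, 755 of 1035 that passed were higher, against 746 of 4193 over all. With the spread shared over all groups, the 95% interval of the change lay inside 2-fold for all 7. In ATII cells 0 of 6 tested genes passed, as did 0% of all features, of which 3230 of 32045 had an unadjusted p under 0.05. Among the 6, 1 had an unadjusted p under 0.05, and the interval lay inside 2-fold for 4. A missed threshold does not show that the levels were alike, and the intervals rest on the shared spread. For Dcn the SD was 0.87 (BAPN) and 0.47 (vehicle) in fibroblasts, against 0.16 and 0.14 in ATII cells. For Lum it was 0.82 and 0.64, against 0.22 and 0.14. For these genes the shared spread makes the interval too narrow in fibroblasts and too wide in ATII cells.

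In fibroblasts the BAPN and vehicle groups overlapped in all 7 genes, while over all features 24.0% did not overlap. The difference was 0.04 ± 0.17 in Fmod (95% interval −0.34 to 0.41) and −0.12 ± 0.23 in Bgn (−0.62 to 0.39). In Dcn it was 0.22 ± 0.33 (−0.49 to 0.93), with group means of 5.91 ± 0.87 under BAPN (SD, n = 3) and 5.69 ± 0.47 under vehicle (SD, n = 4). Without the arrays numbered 2 it was 0.49 (adjusted p = 0.179). The remaining 4 genes had differences of 0.05 for Lum, 0.11 for Prelp, −0.12 for Ogn and −0.36 for Podn, with adjusted p of 0.399 or more.

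In ATII cells the differences furthest from 0 were in Podn and Lum. Podn was higher under BAPN by 0.59 ± 0.23 on the log2 scale (95% interval 0.08 to 1.09; unadjusted p = 0.026, adjusted p = 0.475 in limma), and the groups overlapped. Its ATII arrays differed by slide, with means of −1.25 (BAPN) and −2.07 (vehicle) on slide 1 and −0.72 and −1.34 on slide 2. The change was 0.82 within slide 1, 0.62 within slide 2, and 0.67 with slide as a block (adjusted p = 0.414). Lum was 1.48-fold lower (−0.57 ± 0.33, −1.28 to 0.15; adjusted p = 0.482), and each of the 4 BAPN arrays lay below each of the 4 vehicle arrays, a separation that 9.07% of all features showed in either direction. Within slide 1 it was −0.51 and within slide 2 −0.65. The difference was −0.33 ± 0.22 in Bgn (−0.79 to 0.14), 0.19 ± 0.30 in Dcn, −0.09 ± 0.16 in Fmod and 0.00 ± 0.30 in Ogn, each with overlapping groups. Prelp and Aspn were at background in ATII cells and gave no change.

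The BAPN effect of ATII cells less the BAPN effect of fibroblasts passed in limma for 0 of the 6 genes measured in both cell types, as for 0% of all features, of which 4731 of 34287 had an unadjusted p under 0.05. Podn had the largest, 0.94 ± 0.34 (95% interval 0.20 to 1.69; unadjusted p = 0.0168, adjusted p = 0.265). It was 0.83 within slide 1 and 1.21 within slide 2. Lum followed with −0.61 ± 0.49 (adjusted p = 0.603), and the other 4 lay between −0.21 and 0.13.

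**Figure D3:**
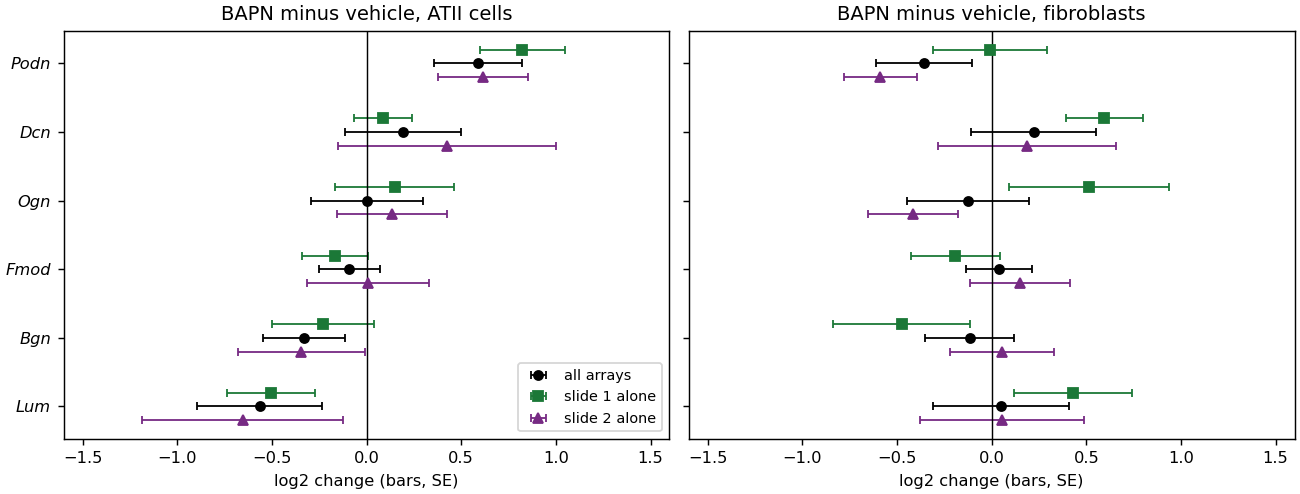
BAPN minus vehicle in ATII cells (left) and fibroblasts (right) for the 6 genes measured in both, over all arrays (black), within slide 1 (green) and within slide 2 (purple), with bars of 1 SE from the model (horizontal axis, log2 change). Podn lay above 0 and Lum below 0 on both slides in ATII cells. In fibroblasts Ogn, Fmod and Bgn lay on opposite sides of 0 on the 2 slides.

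Dcn and Lum varied together among fibroblasts. Over the 7 fibroblast arrays, the deviations from the group means had r = 0.97, and over the 8 ATII arrays r = −0.61. These arrays share slides, and the arrays numbered 2 were the lowest in both genes. Without them 5 fibroblast arrays remain, too few for a coefficient. Col3a1, the type III collagen gene and 1 of the 12 fibroblast markers, had 7.31, 5.76 and 6.84 on the BAPN fibroblast arrays and 6.68, 5.72, 6.20 and 6.39 on the vehicle fibroblast arrays, again lowest on those numbered 2. In ATII cells the closest pair was Bgn and Ogn (r = 0.92, 8 arrays), followed by Ogn and Podn (r = 0.81). All 3 genes had higher vehicle ATII means on slide 2, with Ogn at 1.79 on slide 2 and 1.22 on slide 1, and Bgn at 5.12 and 4.85. All 3 were also lowest on the ATII arrays numbered 1 under both treatments. There Bgn was at 4.23 with BAPN and 4.52 with vehicle, Ogn at 0.91 and 0.90, and Podn at −1.67 and −2.16. These coefficients describe the arrays at hand and carry no test.

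**Figure D4:**
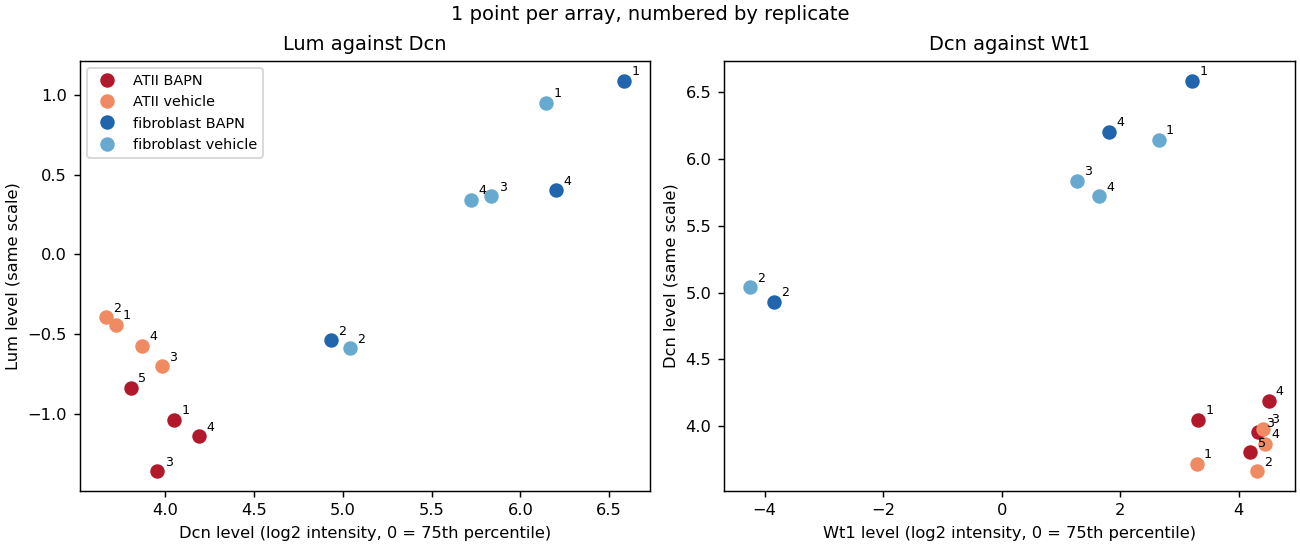
Lum level against Dcn level (left) and Dcn level against Wt1 level (right), both axes in log2 intensity with 0 at the 75th percentile, 1 point per array, numbered by replicate. Both fibroblast arrays numbered 2 lie apart from the other 5, with lower Dcn, Lum and Wt1, and the 8 ATII arrays have the lowest Dcn and the highest Wt1.

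Among 17535 named genes well above background on at least 7 arrays, the 3 genes whose level was most like that of a proteoglycan over the 15 arrays (Pearson r) were listed, with r within each cell type, since the pooled value rests largely on the step between cell types. Prelp had S100a4, Fmod and Ccn5 (0.99; −0.24 to 0.41 within fibroblasts), so that its neighbour Fmod was among them. For Podn they were Lims2, Abcb9 and Rab3b (0.99; −0.08 to 0.65 within fibroblasts and 0.83 to 0.92 within ATII cells). Dcn had Ptprz1, Eya4 and Flt1 (0.98), with 0.87 to 0.99 within fibroblasts and 0.48 to 0.65 within ATII cells. Lum had Apcdd1, Tnfsf18 and Fbxo4 (0.90 to 0.93; 0.84 to 0.88 within fibroblasts and 0.71 to 0.82 within ATII cells). Bgn had Klhdc1, Wdr54 and C1rb (0.93), and Ogn had Psph, C9orf72 and Parp8 (0.97 to 0.98), each with r of at least 0.77 within both cell types.

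Of 9 further small leucine-rich proteoglycan genes, 8 had a value on all arrays. The single probe of Ecm2 was left out because its spot was an outlier on an array. Kera (keratocan) and Epyc (epiphycan), which lie beside Lum, were at background on all 15 arrays, and Omd (osteomodulin) was well above background on 4 of 15 arrays, all of ATII cells. Nyx (nyctalopin) was so on 6 arrays. Under BAPN, 3 of 4 tested were higher in ATII cells than in fibroblasts and 1 lower, with a median log2 change of 0.87. The 3 were Optc (1.21 ± 0.23, adjusted p = 0.00135), Chad (1.12 ± 0.39, adjusted p = 0.0484) and Tsku (0.62 ± 0.17, adjusted p = 0.0123), which rest on the same BAPN fibroblast arrays as the next comparison. The Chad call was lost in 11 of 20 alternatives, among them slide as a block (0.91, adjusted p = 0.0916) and the fits without BAPN fibroblast array 2 or 4 or without ATII BAPN array 1, 3 or 5. The Tsku call was lost in 3 of 20, among them the fit without BAPN fibroblast array 2 (adjusted p = 0.0584). Without the fibroblast arrays numbered 2 the adjusted p was 0.18 for Chad and 0.0717 for Tsku. Under vehicle 0 of 5 were higher and 1 lower, with a median of −0.24. The gene lower in both was Podnl1, the closest relative of Podn, with −0.52 ± 0.18 under BAPN (adjusted p = 0.0449) and −0.86 ± 0.17 under vehicle (adjusted p = 0.00137). Its BAPN call was lost in 10 of 20 alternatives, among them normexp background correction (adjusted p = 0.197) and the fits without BAPN fibroblast array 1 or 4 or any single ATII BAPN array.

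In fibroblasts 3 of 5 tested members of this further group were lower under BAPN and 0 higher, against 13% of all features in either direction, 3447 lower and 746 higher (median −0.67, against 0.03). Chad (chondroadherin, a cartilage protein) was at −2.75, −3.97 and −4.18 with BAPN and at −2.25, −1.77, −2.16 and −1.74 with vehicle, a change of −1.65 ± 0.39 (adjusted p = 0.0201). Within slide 1, which holds 1 of the BAPN arrays, the change was −0.55 (adjusted p = 0.0928), and within slide 2 −2.31 (adjusted p = 0.00544). The 1 ATII BAPN array on slide 2 was low as well, so that ATII BAPN arrays 1, 3, 4 and 5 had −2.06, −2.04, −3.72 and −2.24 and vehicle ATII arrays −1.94, −2.02, −2.02 and −2.16. Tsku (tsukushi, an inhibitor of BMP signalling known from chick embryos) was at −0.76, −1.04 and −0.79 with BAPN and at −0.34, −0.26, −0.50 and 0.34 with vehicle, a change of −0.67 ± 0.17 (adjusted p = 0.022). Optc (opticin, known from the eye) was at −3.26, −3.25 and −3.23 with BAPN and at −2.22, −2.81, −3.05 and −1.92 with vehicle, a change of −0.74 ± 0.23 (adjusted p = 0.0494). None of the 3 passed without the fibroblast arrays numbered 2 (adjusted p = 0.163 for Chad, 0.154 for Tsku and 0.148 for Optc), a fit in which 0 of all 30524 features passed at the adjusted threshold. Of 20 alternatives each, 7 lost the call for Chad, 9 for Tsku and 17 for Optc. In ATII cells 0 of 5 passed in limma and 0 had an unadjusted p under 0.05, and the differences between the BAPN effects were 1.18 ± 0.54 for Chad, 0.86 ± 0.23 for Tsku and 1.10 ± 0.31 for Optc (adjusted p of 0.184 or more).

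Collagens, which these proteoglycans coat, were split. Of 14 fibrillar and fibril-associated collagen genes, 2 were higher and 4 lower in ATII cells under BAPN, and likewise 2 and 4 under vehicle, with median log2 changes of −0.17 and −0.04. Col5a3, a minor fibrillar chain, was higher in ATII cells (4.03 ± 0.17 under BAPN and 3.86 ± 0.16 under vehicle; adjusted p = 3.76e-09 and 1.97e-09), as was Col11a1 (1.38 ± 0.26 and 1.46 ± 0.24). Col14a1, a fibril-associated collagen known to bind decorin, was lower (−2.85 ± 0.30 and −2.15 ± 0.28; adjusted p = 9.09e-06 and 4.87e-05), as was Col6a1 (−0.90 ± 0.30 and −1.02 ± 0.28; adjusted p = 0.0414 and 0.0136). The Col6a1 call under BAPN was lost in 10 of 21 alternatives, among them slide as a block (adjusted p = 0.0823), position correction (adjusted p = 0.108) and the fits without BAPN fibroblast array 1 or 4 or ATII BAPN array 1 or 5. Between BAPN and vehicle 0 of 14 passed in limma in either cell type. At an unadjusted p under 0.05 there was 1 in fibroblasts, Col2a1 (−1.80 ± 0.75, adjusted p = 0.139), and 0 in ATII cells, where Col14a1 had the smallest p (−0.37 ± 0.28, adjusted p = 0.55).

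Enzymes that build the sugar chains differed in both directions between the cell types. Of 24 tested, 8 were higher and 10 lower in ATII cells under BAPN (median −0.13), and 9 higher and 7 lower under vehicle (median −0.04). Ust, the uronyl sulfotransferase of dermatan sulfate, was higher (1.69 ± 0.14 under BAPN and 2.23 ± 0.13 under vehicle; adjusted p = 1.15e-06 and 3.57e-08), as were the sulfotransferase gene Chst2 and the chain-initiating Csgalnact1. Chst1, a keratan sulfate sulfotransferase gene, was lower (−2.33 ± 0.23 and −1.89 ± 0.21; adjusted p = 5.72e-06 and 1.59e-05), as was Ugdh, which makes the UDP-glucuronate precursor (−1.43 ± 0.16 and −1.07 ± 0.15). Between BAPN and vehicle 1 of 24 was higher in BAPN fibroblasts, Ust (0.66 ± 0.14, adjusted p = 0.014), and it did not pass without the arrays numbered 2 (adjusted p = 0.119). Its call was lost in 6 of 20 alternatives, normexp background correction (adjusted p = 0.265) among them. In ATII cells 0 of 24 passed in limma, and 1 had an unadjusted p under 0.05, the epimerase gene Dse (−0.50 ± 0.18, adjusted p = 0.475).

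Of 20 genes for processing enzymes, receptors and ligands of these proteoglycans, 19 were tested under BAPN, of which 9 were higher and 6 lower in ATII cells, and 20 under vehicle, of which again 9 were higher and 6 lower. Itga2, a chain of a collagen receptor to which decorin binds, was higher (3.21 ± 0.46 and 3.19 ± 0.42; adjusted p = 1.39e-04 and 6.74e-05), as was the growth factor gene Tgfb2 (1.78 ± 0.27 and 1.67 ± 0.25). Erbb4, a receptor of the EGF receptor family, was at background on fibroblast arrays. It was tested through its ATII arrays alone, so its direction was fixed in advance and its p-values are no evidence for it. With ATII cells the higher, its lower bounds were 1.92-fold (BAPN) and 1.10-fold (vehicle), and these bounds were not tested. Fitted in limma against the background values, the log2 changes were 2.25 under BAPN (adjusted p = 0.00172) and 1.61 under vehicle (adjusted p = 0.00846). The vehicle call was lost in 2 of 16 alternatives, normexp background correction (adjusted p = 0.246) and the mean over probes (adjusted p = 0.0803). Bmp4 was lower (−2.87 ± 0.21 and −2.62 ± 0.19; adjusted p = 2.93e-07 and 2.87e-07), as was Pcolce, the enhancer of procollagen C-proteinase (−1.46 ± 0.16 and −1.59 ± 0.15). Between BAPN and vehicle 1 of 18 was higher in BAPN fibroblasts, the TGF-β receptor gene Tgfbr1 (0.39 ± 0.10, adjusted p = 0.0249; adjusted p = 0.171 without the arrays numbered 2). This call was lost in 12 of 21 alternatives, among them normexp background correction (adjusted p = 0.233), quantile scaling (adjusted p = 0.0644) and the mean over probes (adjusted p = 0.212). In ATII cells 0 of 19 passed in limma, and 1 had an unadjusted p under 0.05, Tgfbr2 (−0.37 ± 0.15, adjusted p = 0.475).

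**Figure D5:**
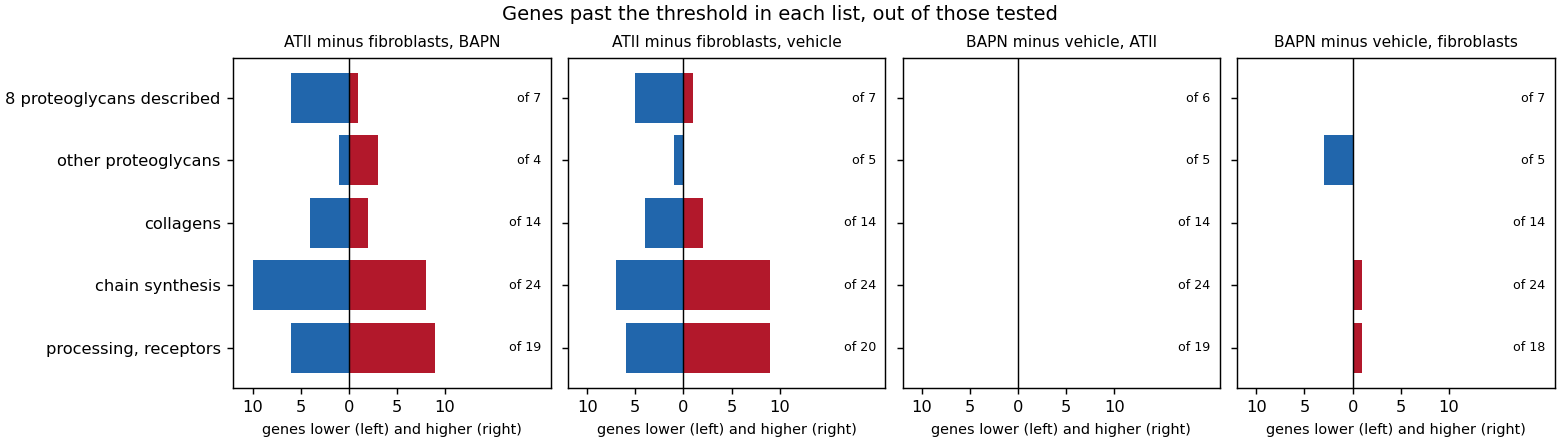
Number of genes past the adjusted threshold in each list, higher to the right in red and lower to the left in blue (horizontal axis, genes), with the number tested at the right edge, in the 4 comparisons. The 8 proteoglycans lean to the lower side in ATII cells, 6 of 7 under BAPN and 5 of 7 under vehicle. Both counts include Prelp, whose direction was fixed because only its fibroblast arrays were above background. Chain synthesis and processing genes are split. Between BAPN and vehicle the ATII panel is empty, and the fibroblast panel shows 3 other proteoglycans lower and 1 gene higher in each of the chain synthesis and processing lists.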

How the data were processed

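The samples were 15 1-colour Agilent arrays. The deposited scanner output came from Agilent Feature Extraction 10.7.3.1, per the file headers, and its processed intensity deposited per spot is background-subtracted and not normalized between arrays. The deposited series table holds log2 values, which set against the scanner values proved quantile normalized (median 5.956 in each column, r of at least 0.9995 with the same array). It served as an alternative.

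Outlier spots were left out (469 of 55681 probes lost, Ecm2 and Xylt1 of the lists among them), spots of a probe averaged, and each array's 75th percentile subtracted from log2 intensity. Probes were named through RefSeq GRCm38.p6 (27428 by accession, 3483 by symbol, 507 by older symbol, 24263 unnamed), with the brightest probe standing for a gene. A model with 1 mean per group was fitted over the 15 arrays with limma 3.58.1 (R 4.3.3), leaving 11 residual degrees of freedom. A feature was tested where 3 or more arrays among the compared groups measured it well above background, with Benjamini-Hochberg adjustment over all of them and a threshold of 0.05. Precision is limited by the number of arrays. On simulated data for the vehicle comparison of cell types (32470 features), 48 of 100 features with a log2 change of 1 and 83 of 100 with a change of 2 were recovered, with 9 false calls. No other features were changed there, whereas 31.0% passed in the data. The adjustment was therefore stricter in the simulation, and its counts do not give the recovery in the data.

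The rule for named genes took each of the 8 proteoglycans, up to 3 genes of each list in each direction with the largest change past the threshold (up to 2 of the smallest unadjusted p where none passed), and the 3 genes most alike, which for Fmod are not reported here. Genes and lists were chosen with earlier results of these data known. Slides 1 and 2 hold arrays of all groups. The main fit had no term for slide, which entered the alternatives only. Replicate numbers were checked as pairs. Over all tested features, deviations of same-numbered arrays correlated at −0.08, 0.10 and −0.04 in fibroblasts and at 0.23, −0.15 and −0.15 in ATII cells. They were therefore not used as pairs. Single genes did follow the numbers under both treatments. Wt1, Dcn and Lum were lowest on the fibroblast arrays numbered 2, and Bgn, Ogn and Podn on the ATII arrays numbered 1. The check over all features therefore does not show that same-numbered arrays are unrelated. Alternatives covered background correction, scaling, dim probes, probe choice, slide, spot position, replicate block, the arrays fitted and single arrays left out. BAPN fibroblasts numbered 3 were not analysed here.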

Additional observations from a re-analysis of the deposited data

Results flagged for a closer look

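Of 24 groups of 4 arrays (8 genes, 3 groups), 3 held an array farther from the others than Dixon's 95% critical value allows, and chance flags about 1 in 20 groups. Bgn in ATII BAPN replicate 1, at 4.23, lay below the other 3 arrays (4.85, 4.78 and 4.78, ratio 0.885). In vehicle ATII cells replicate 1 was also the lowest for Bgn, at 4.52, without a flag. Fmod in ATII BAPN replicate 5, the replacement array, was lowest at −1.38 against −1.21, −1.19 and −1.22 (ratio 0.833), within a narrow range. Aspn in ATII BAPN replicate 1, at −5.74, was the highest of 4 arrays that were all not well above background (ratio 0.912).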

How the results depend on the processing

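Of the 7 genes tested between the cell types, 7 passed under BAPN and 6 under vehicle. Within a slide, where fewer arrays were compared, 6 were tested. Under vehicle 4 passed on slide 1, where 6060 of 29829 of all features did. On slide 2 it was 3, where 3906 of 29621 of all features passed. Under BAPN each slide left 1 array in a group, so no count is given. Leaving out 1 array at a time gave 5 to 7 under BAPN and 5 to 6 under vehicle. For BAPN against vehicle 0 passed in limma in either cell type under each alternative run. The Lum difference under vehicle passed within slide 1, without vehicle fibroblast array 2 and with the replicate block. With the replicate block 7 genes passed under BAPN and 6 under vehicle, and over all features the 4193 BAPN calls in fibroblasts became 0, those of Chad (adjusted p = 0.059), Optc (0.0576), Tsku (0.0569), Ust (0.0574) and Tgfbr1 (0.081) among them. Between the cell types under BAPN the block also ended the calls of Chad (0.169), Podnl1 (0.0826) and Col6a1 (0.0723). This block gave same-numbered arrays a shared offset in both cell types, and replicate 5 an offset of its own. It was therefore not a block on matched cultures, and the cause of the lost calls was not tested.

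Sign changes occurred 48 times over 12 differences, none past the threshold, with a lowest adjusted p of 0.46. In fibroblasts (BAPN minus vehicle) normexp gave Bgn 0.0419, Fmod −0.176 and Prelp −0.0149. Fmod was −0.0543 with quantile scaling, −0.0542 in the deposited table, −0.191 within slide 1 and −0.0668 without the arrays numbered 2. Ogn was 0.513 within slide 1 and 0.118 without the arrays numbered 2, Lum −0.181 with position correction and Bgn 0.0558 within slide 2. In ATII cells Ogn was −0.0179 with normexp, −0.0217 with position correction and −0.0012 with the replicate block, and Fmod 0.0275 with position correction and 0.0058 within slide 2. Between the BAPN effects Dcn was 0.0748 with quantile scaling, 0.0719 in the deposited table, 0.0268 with position correction and 0.238 within slide 2. Slide 1 gave Bgn 0.243, Fmod 0.0226 and Ogn −0.364, normexp Fmod 0.0104 and Ogn −0.0105, and the fit without the arrays numbered 2 Ogn −0.114. With 1 array left out, fibroblast differences ranged from −0.118 to 0.709 for Dcn, −0.245 to 0.0694 for Bgn, −0.336 to 0.478 for Lum, −0.0591 to 0.158 for Fmod, −0.472 to 0.0807 for Ogn and −0.0012 to 0.188 for Prelp. The range was −0.196 to 0.204 for Ogn in ATII cells, and between the BAPN effects −0.516 to 0.31 for Dcn and −0.0764 to 0.477 for Ogn.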
